A study of Mus musculus with 4 samples.

Results

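The genes of fatty acid oxidation and ketone body metabolism, 31 of the 12790 named genes that could be compared in all mice, were followed in brown adipose tissue (BAT) after a short activation of the integrated stress response (ISR). They were chosen as a list of known enzymes of these pathways, together with the nuclear receptor PPARα and the peroxisomal membrane protein PEX11α, and each was measured by the array probes whose accession carries its name. All 4 mice were 8-week-old males of the C57BL/6N strain carrying maP2::Fv2E-PERK, in which the eIF2α kinase domain of PERK is fused to a domain that dimerizes on binding AP20187 (AP), so that the kinase is switched on by the drug and not by stress. The transgene is driven by a fragment of the mouse aP2 (Fabp4) promoter, which is active in white and brown fat and also in monocytes and macrophages, and both groups carried it, so the effect of the drug without the transgene was not measured here. Of these mice, 2 received the vehicle (ethanol, PEG-400 and Tween-20 in water) and 2 received AP, each by intraperitoneal injection, and BAT was taken 12 h later. The dose of AP is given as 1 ng/g in the sample labels and as 0.05 mg/kg in the study's description of the experiment. The mice are called vehicle 1, vehicle 2, AP 1 and AP 2 here, after the replicate numbers of the labels.

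Long-chain fatty acids are activated to acyl-CoA at the outer mitochondrial membrane, carried inside by the carnitine shuttle and shortened in repeated rounds of dehydrogenation, hydration, a further dehydrogenation and thiolysis. Peroxisomes run a parallel pathway for very long and branched chains, in which the first step passes its electrons to oxygen, and PPARα is the receptor that switches on many genes of both organelles. In BAT, fatty acid oxidation provides the electrons for the respiratory chain that UCP1 uncouples to make heat, and ketone bodies serve as an additional fuel.

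RNA of each mouse was labeled with Cy3 and hybridized to its own Agilent SurePrint G3 array, so a level here is the brightness of a probe and not a count of reads. Levels are given on the log2 scale after subtraction of the 75th percentile of each array, and a difference of 1 on this scale is a 2-fold difference in signal. The share of noncontrol spots well above background was 46.76% in vehicle 1, 48.99% in vehicle 2, 46.35% in AP 1 and 46.43% in AP 2. The 75th percentile of the processed signal before scaling was 118.9 in vehicle 1, 158.7 in vehicle 2, 127.6 in AP 1 and 118.5 in AP 2. The barcode of each array ends in 2 numbers for its position on the slide. Vehicle 2, the brightest array, was also the only one with 2 as the first number, while the other 3 had 1. Precision is limited by how few arrays there were. The p values, standard errors and intervals are from limma, which pulls the variance of each probe toward that of all probes tested. They cover the spread between these mice only. Because this is bulk tissue, fewer cells of a type and less RNA per cell cannot be told apart.

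The label of the tissue and the drug were checked first. All 9 brown adipocyte markers were measured above background in every mouse, and Ucp1 was at 10.41 and 9.66 after the vehicle and at 9.66 and 10.25 after AP. The brightest of these markers, Cidea, a lipid droplet protein of brown fat, was at 11.34 and 10.62 with the vehicle and at 11.08 and 11.25 with AP. Trib3, a target of the ISR, was at 2.78 and 2.33 with the vehicle and at 6.26 and 8.01 with AP. Ddit3, another target, was at 2.18 and 1.86 with the vehicle and at 3.03 and 4.22 with AP. The groups did not overlap for either gene. Of the 6 ISR genes on the list, 5 were higher with AP by value. The groups did not overlap in 4 of the 6, with AP above in each, as in 20.1% of all genes. The groups overlapped for Atf4, which encodes the transcription factor of the ISR and was at 7.49 and 6.12 with the vehicle and at 7.26 and 8.23 with AP. They also overlapped for Atf3, at 0.11 and -0.15 with the vehicle and at -1.17 and -0.11 with AP, giving a log2 fold change of -0.62. No probe reached an adjusted p of 0.05 in limma (0 of 24972, or 0.0%), those of Trib3 and Ddit3 included, while 1515 probes, or 6.07%, had an unadjusted p below 0.05. A single gene compared by exact two-sided permutation of 2 against 2 mice cannot give a p below 0.333.

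None of the 31 fatty acid oxidation and ketone body genes differed between AP and the vehicle by the test. Their adjusted p values in limma lay between 0.801 and 0.995, and 0 had an unadjusted p below 0.05, where 6.04% of all genes did. By value, 24 were higher with AP and 7 lower, with a median log2 fold change of 0.19 against 0.01 over all genes, of which 51.4% were higher. In the authors' own table of the same arrays, in which the median of all genes was -0.15, 16 of the 31 were above 0 and 24 were above the median of all genes. With normexp background correction, which moved genes unequally, 19 of the 31 were above it. The groups did not overlap in 3 genes, Acadl, Decr1 and Bdh1, against 37.4% of all genes, and in each of them the AP group was the higher, as in 20.1% of all genes. The opposite separation occurred in 0 of the 31 genes and in 17.3% of all genes, each gene read by its brightest tested probe. A difference of 2-fold or more was seen in 1 of them, Ehhadh, and in 4.70% of all genes.

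The spread between mice was wider than most of these differences. The limma standard error, which also draws on the variance of all probes, was larger than the log2 fold change in 22 of the 31 genes. The 95% interval of the fold change stayed within 2-fold in either direction for 15 genes, and its half-width ran from 0.54 to 3.32 on the log2 scale with a median of 0.78. The narrowest range over the 4 mice was 0.14, for Hadh, and the widest was 3.41, for Acsl5.

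One mouse of the vehicle group stood apart for most of these genes. Vehicle 2 was the lowest of the 4 mice for 23 of the 31 genes, or 74.2%, where it was the lowest for 35.9% of all genes, and it was the highest for 0 of them. The other vehicle-treated mouse was the highest for 13 genes and the lowest for 3. The mean of the AP-treated mice lay between the 2 vehicle-treated mice for 19 genes, or 61.3%, against 37.9% of all genes. Set against vehicle 2 alone, the AP mean was higher in 27 genes with a median difference of 0.38, and set against vehicle 1 alone it was higher in 10 genes with a median difference of -0.04. Between the vehicle-treated mice themselves the median difference, vehicle 1 minus vehicle 2, was 0.55 over the 31 genes and 0.10 over all genes.

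**Figure D1:**
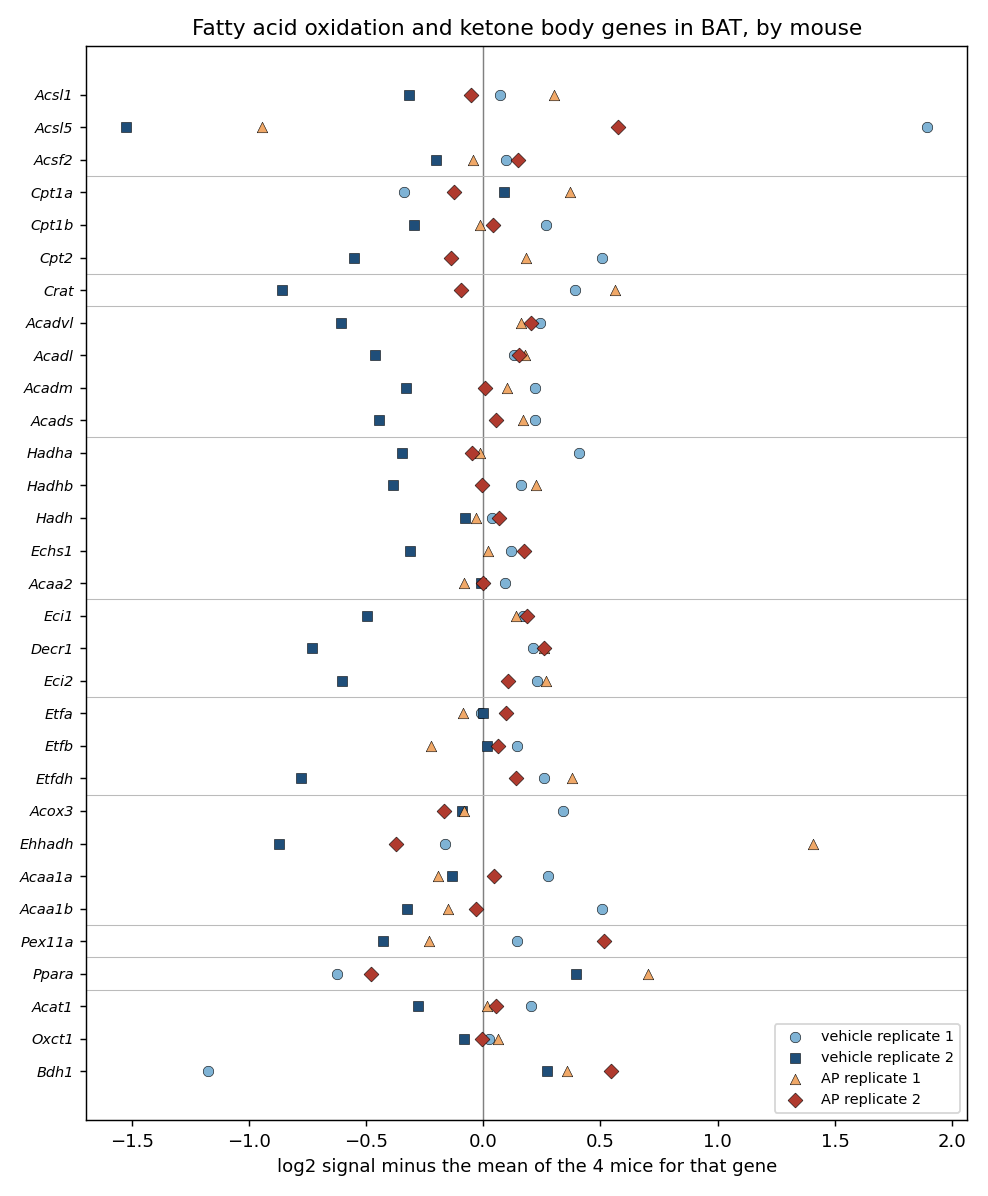
Each of the 31 genes is a line of points, 1 per mouse, showing the log2 signal minus the mean of the 4 mice for that gene, with grey lines between the steps of the pathway. The dark blue squares of vehicle 2 lie furthest left for 23 genes, and the points of the AP-treated mice mostly lie among those of vehicle 1.

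The enzymes that activate fatty acids were described first. Acsl1, a long-chain acyl-CoA synthetase, was at 8.29 and 7.91 with the vehicle and at 8.52 and 8.17 with AP, so the groups overlapped, with a log2 fold change of 0.25 and a standard error of 0.26. Acsl5, a related synthetase of the outer mitochondrial membrane and endoplasmic reticulum, was at 6.24 and 2.83 with the vehicle and at 3.41 and 4.93 with AP. This was the gene of the group that varied most, and the vehicle-treated mice held both the highest and the lowest value. Acsf2, a medium-chain synthetase of mitochondria, stayed between 2.89 and 3.24 in all 4 mice, and a dimmer probe of the gene gave a log2 fold change of -0.39 where the brighter gave 0.11.

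The carnitine shuttle moves the activated chain across the mitochondrial membranes. Cpt1b, the carnitine palmitoyltransferase 1 that predominates in muscle and brown fat, was at 6.14 and 5.58 with the vehicle and at 5.86 and 5.92 with AP. Its log2 fold change was 0.03 with a standard error of 0.27, and a second probe gave -0.24, so its direction was not settled. Cpt1a, the form of liver, was at 0.22 and 0.65 with the vehicle and at 0.93 and 0.44 with AP, and both of its probes were higher with AP, by 0.25 and 0.24, although without AP 1 the brighter probe differed by 0.0013. Cpt2, which rebuilds the acyl-CoA inside the mitochondrion, was at 7.62 in vehicle 1 and 6.56 in vehicle 2, and the AP-treated mice, at 7.29 and 6.97, lay between them. Crat, the carnitine acetyltransferase that buffers acetyl-CoA in mitochondria and peroxisomes, was at 2.06 and 0.81 with the vehicle and at 2.23 and 1.58 with AP, giving a log2 fold change of 0.47 with a standard error of 0.51.

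The 4 acyl-CoA dehydrogenases, which carry out the first oxidation for successive chain lengths, shared a pattern across the mice. Acadvl, for very long chains, was at 9.98 and 9.13 with the vehicle and at 9.89 and 9.94 with AP. Acadl, for long chains, was at 6.88 and 6.28 with the vehicle and at 6.93 and 6.90 with AP, and the AP-treated mice exceeded vehicle 1 by less than 0.1. Acadm, for medium chains, was at 9.16 and 8.61 with the vehicle and at 9.04 and 8.95 with AP. In all 3, vehicle 2 stood below the other mice, which were close to each other. For Acads, the short-chain enzyme, vehicle 2 was also the lowest, at 3.87 against 4.37 to 4.54 in the others. Their log2 fold changes were 0.36, 0.33, 0.11 and 0.23 in the order of chain length, with standard errors from 0.27 to 0.34.

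The steps that follow are hydration, the further oxidation and thiolysis. Hadha and Hadhb encode the α and β subunits of the trifunctional protein, which carries out all of them for long chains. Hadha was at 5.64 and 4.89 with the vehicle and at 5.22 and 5.19 with AP, and Hadhb at 9.59 and 9.04 with the vehicle and at 9.65 and 9.42 with AP. Vehicle 2 was the lowest mouse for both subunits, and the log2 fold changes were -0.06 for Hadha and 0.22 for Hadhb, with standard errors of 0.32 and 0.28. Echs1, the short-chain hydratase, was at 7.67 and 7.24 with the vehicle and at 7.57 and 7.73 with AP. Hadh, the short-chain hydroxyacyl-CoA dehydrogenase, and Acaa2, the mitochondrial thiolase, were the steadiest enzymes of these steps, with ranges over the 4 mice of 0.14 and 0.18. The 95% interval of the fold change with AP ran from 0.71 to 1.49 for Hadh and from 0.65 to 1.37 for Acaa2.

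Sequence upstream of the genes was read for 26 of the 31 genes, which had 28 promoter windows in RefSeq (GRCm38.p6), each from 250 bases before to 50 bases after a start. The PPAR element AGGTCANAGGTCA, searched on both strands, matched 0 of these 28 windows and 13 of 32851 windows of all genes, or 0.0396%. With so rare a match, 0 in 28 windows cannot set these genes apart from others. Sites outside the windows or with other letters were not searched. The CEBP:ATF4 core TGATGCAA, searched on both strands, matched 294 of all windows, or 0.895%, and 1 window of the fatty acid genes, that of Echs1, where its first base lies 164 bases before the start. The same letters stand on the opposite strand 193 bases before the start of Chac1, a known ATF4 target, whose log2 signal was 0.02 and -0.98 with the vehicle and 2.06 and 3.83 with AP. Among the other pathway and marker genes the letters also stand before Atf3 (110 bases, log2 fold change -0.62), Fgf21 (139 bases, 2.26), Phyh (168 bases, 0.19) and Esrra (227 bases, -0.28), so genes with the match had values on both sides of 0. A match describes the letters and is not evidence of binding, and Echs1 had a log2 fold change of 0.19 with a standard error of 0.25. The sequences show, in capitals, the match for Echs1 (chr7:140116538-140116625, minus strand) and Chac1 (chr2:119351009-119351096, plus strand), and, for Hadha, the 250 bases before its start (chr5:30154981-30155230, minus strand), which hold neither motif. The starts of Hadha and Hadhb point away from each other with 272 bases between them, so this last stretch lies upstream of both subunit genes.
Echs1: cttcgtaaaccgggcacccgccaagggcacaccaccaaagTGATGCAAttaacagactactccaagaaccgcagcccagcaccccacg
Chac1: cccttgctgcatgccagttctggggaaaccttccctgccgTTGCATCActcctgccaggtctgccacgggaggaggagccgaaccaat
Hadha and Hadhb: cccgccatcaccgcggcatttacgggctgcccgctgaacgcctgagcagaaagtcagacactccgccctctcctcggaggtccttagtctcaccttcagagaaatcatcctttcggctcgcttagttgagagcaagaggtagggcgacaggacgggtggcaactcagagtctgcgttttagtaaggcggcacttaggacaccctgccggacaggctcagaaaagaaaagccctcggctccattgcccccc

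Unsaturated chains need auxiliary enzymes that move or remove their double bonds. Decr1, the mitochondrial dienoyl-CoA reductase, was at 9.29 and 8.35 with the vehicle and at 9.34 and 9.34 with AP. The AP-treated mice exceeded vehicle 1 by only 0.05 on average and vehicle 2 by 0.99, and the log2 fold change was 0.52 with a standard error of 0.37. On a second, dimmer probe of Decr1, at 3.36 and 2.56 with the vehicle and at 3.49 and 2.88 with AP, the groups overlapped and the log2 fold change was 0.23. The isomerases Eci1 and Eci2 repeated this pattern, with log2 fold changes of 0.33 and 0.37 and with vehicle 2 lowest, at 7.68 and 5.67. Their other 3 mice lay between 8.32 and 8.37 for Eci1 and between 6.38 and 6.54 for Eci2.

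Electrons of the dehydrogenases pass to the electron transfer flavoprotein and from there to its oxidoreductase. The 2 subunits of the flavoprotein were flat by comparison. Etfa was between 8.45 and 8.63 and Etfb between 9.47 and 9.83 in the 4 mice, and vehicle 2 was the lowest mouse for neither. Etfdh, the oxidoreductase, was at 7.67 and 6.63 with the vehicle and at 7.79 and 7.55 with AP, with a log2 fold change of 0.52 and a standard error of 0.40. Without vehicle 2 the difference for Etfdh was 0.0016.

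The peroxisomal enzymes were fewer and differed among themselves. Ehhadh, the bifunctional hydratase and dehydrogenase of peroxisomes and a classical target of PPARα, was at 1.1 and 0.39 with the vehicle and at 2.67 and 0.89 with AP. This was the largest fold of the 31 genes, 2.05-fold, and AP 1 alone was high while AP 2 lay between the vehicle-treated mice. The standard error of its log2 fold change of 1.03 was 0.66, and without AP 1 it was 0.14. Acox3, an oxidase of branched chains, was at 2.98 and 2.55 with the vehicle and at 2.56 and 2.47 with AP, and both of its probes were lower with AP, by -0.25 and -0.27. Acaa1a and Acaa1b encode peroxisomal thiolases so alike in sequence that a probe may bind the RNA of both, and their values are uncertain for that reason. Acaa1a was at 7.47 and 7.06 with the vehicle and at 7.0 and 7.24 with AP, and Acaa1b at 4.44 and 3.61 with the vehicle and at 3.79 and 3.91 with AP. In all of these but Ehhadh, vehicle 1 was the highest mouse.

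The enzymes of the mitochondrion were then set against those of the peroxisome. Of the 17 mitochondrial enzymes, 14 were higher with AP by value, with a median log2 fold change of 0.19 and single values from -0.16 to 0.52. Of the 4 peroxisomal enzymes, 1 was higher, with a median of -0.16. The medians differed by 0.35, with 2 mice per group and no test of the difference between the classes. When Eci2 and Crat, which occur in both organelles, were counted with the peroxisomal enzymes, the difference was 0.08. Between the 17 and the 4 enzymes, with Eci2 and Crat in neither class, it was 0.18 without AP 1. By mouse, the median of the mitochondrial enzymes relative to the 4-mouse mean was 0.17 in vehicle 1, -0.35 in vehicle 2, 0.14 in AP 1 and 0.06 in AP 2. The same medians of the peroxisomal enzymes were 0.31, -0.23, -0.12 and -0.10. Vehicle 2 was low in both classes, and the AP-treated mice were near vehicle 1 in the mitochondrial class and between the vehicle-treated mice in the peroxisomal class. Against vehicle 1 alone, 5 of the 17 mitochondrial enzymes were higher with AP, and against vehicle 2 alone 15 were. The median of the mitochondrial enzymes was -0.05 without vehicle 2, and that of the peroxisomal enzymes was 0.15 without vehicle 1. With all mice, 21 other peroxisomal genes, described below, had a median of 0.15, with 14 higher and 7 lower.

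**Figure D2:**
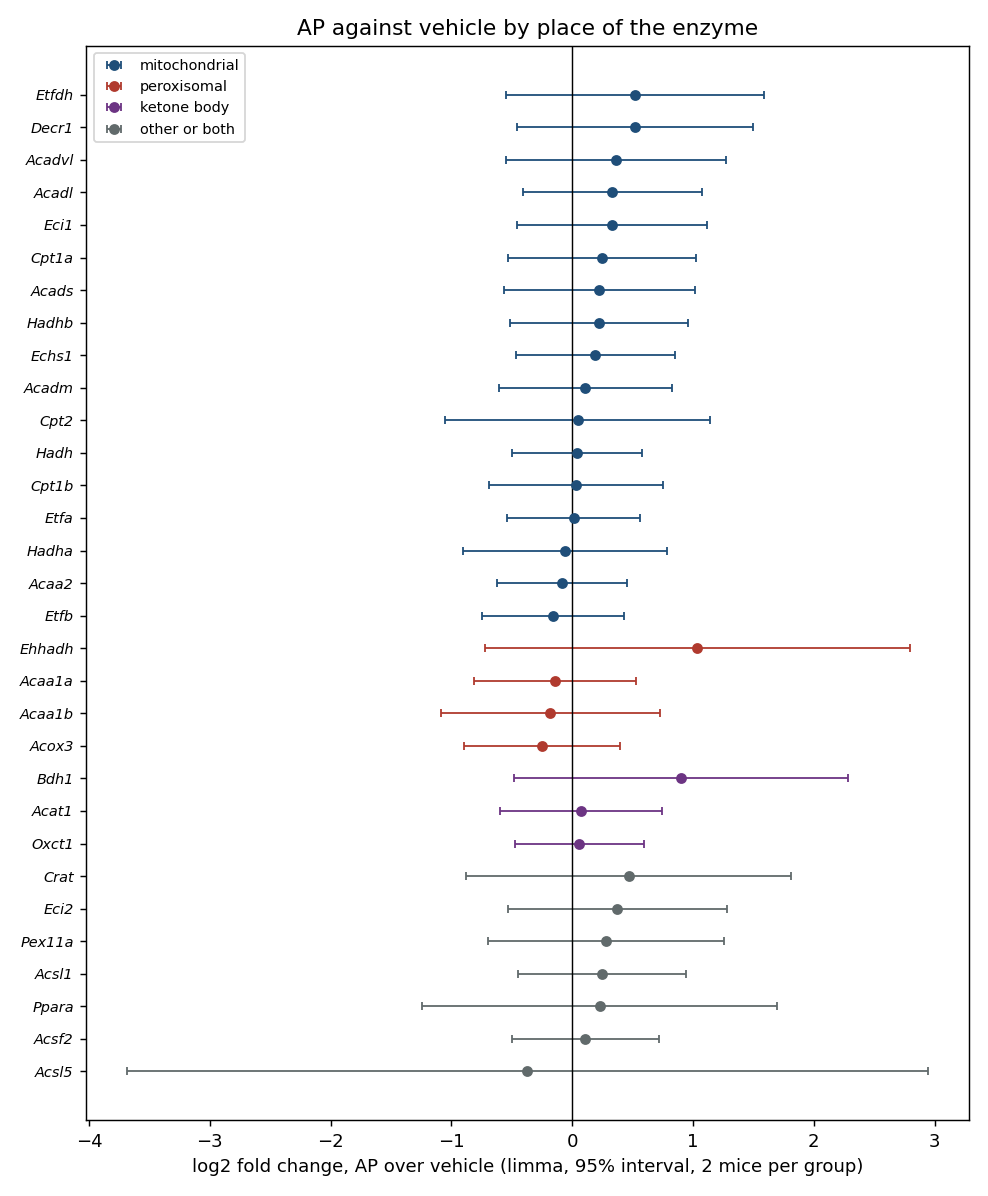
The log2 fold change of AP over the vehicle is plotted for the 31 genes, colored by the place of the enzyme, with 95% intervals from limma and 2 mice per group. Every interval crosses 0, and the mitochondrial points lie between -0.16 and 0.52.

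Pex11a, a membrane protein that promotes peroxisome division, was at 5.98 and 5.40 with the vehicle and at 5.60 and 6.35 with AP. Vehicle 2 was the lowest mouse and the groups overlapped, with a log2 fold change of 0.28 and a standard error of 0.37.

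Ppara had its own order of mice. The brightest of its 3 probes was at 5.49 and 6.51 with the vehicle and at 6.82 and 5.64 with AP, so that AP 1 and vehicle 2 were high and the other two were low. The second probe gave 3.84, 4.86, 5.03 and 3.68, and the third gave 2.57, 3.79, 4.49 and 3.21, in the order vehicle 1, vehicle 2, AP 1 and AP 2. All 3 probes placed AP 1 first and vehicle 2 second, and their log2 fold changes were 0.23, 0.0017 and 0.67. The standard errors were 0.55, 0.59 and 0.62, so the receptor differed more within each group than between the groups.

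**Figure D3:**
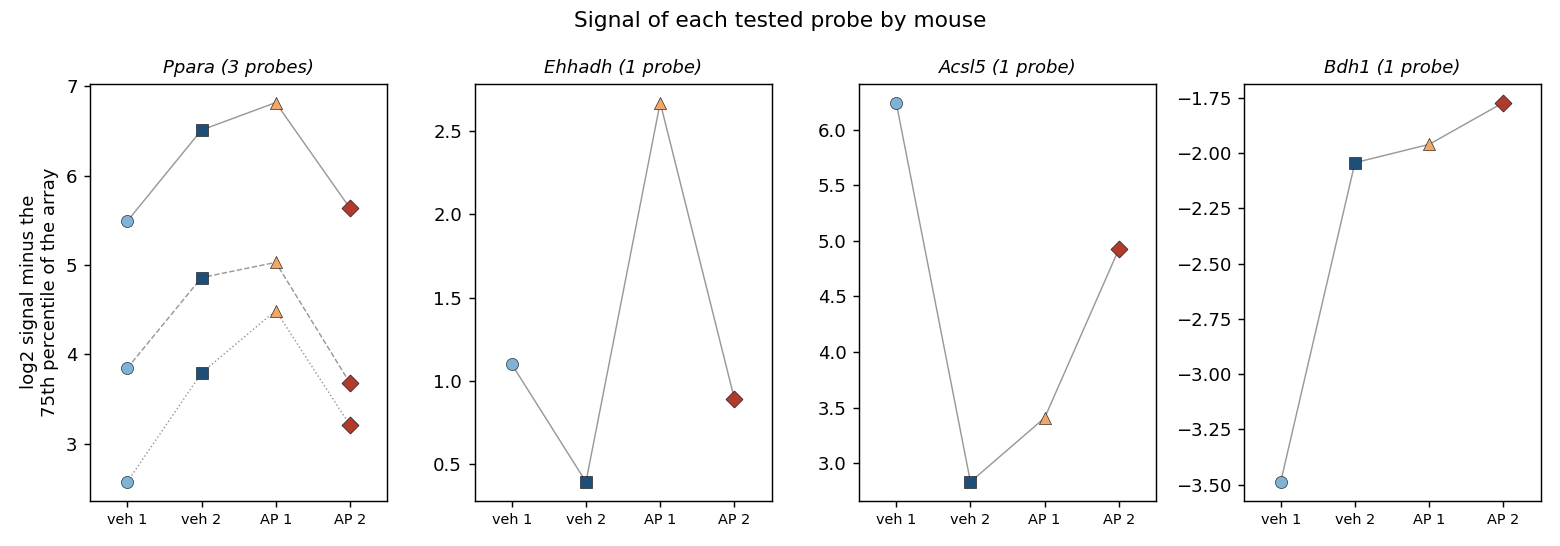
Log2 signal, scaled to the 75th percentile of its array, is plotted by mouse (veh, vehicle) for the tested probes of Ppara, Ehhadh, Acsl5 and Bdh1, with a line joining the values of 1 probe and a vertical scale of its own in each panel. The 3 Ppara probes rank AP 1 first and vehicle 2 second, Ehhadh is high in AP 1 only, Acsl5 has its highest and lowest values in the vehicle group, and Bdh1 is low in vehicle 1.

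The ketone body genes completed the list. Oxct1, the transferase that starts the use of ketone bodies, was between 5.94 and 6.09 in the 4 mice, and the 95% interval of its fold change ran from 0.72 to 1.51. Acat1, the mitochondrial acetoacetyl-CoA thiolase, was at 5.98 and 5.50 with the vehicle and at 5.79 and 5.83 with AP. Bdh1, which interconverts acetoacetate and β-hydroxybutyrate, was at -3.49 and -2.04 with the vehicle and at -1.96 and -1.77 with AP. Its log2 fold change of 0.90, with a standard error of 0.52, had the smallest unadjusted p of the group in limma, 0.151. The probe was close to the background, for which the dimmest signal called well above it was at -3.65 in vehicle 1. Here vehicle 1 was the mouse apart, and without it the difference was 0.18. The other 2 probes of Bdh1 were not tested, since they were well above background in 1 array and in 0 arrays.

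Markers of other cells were read in the same mice, since BAT lies beside muscle and white fat. All 14 skeletal muscle markers were lowest in vehicle 1 and highest in vehicle 2, with a median difference, vehicle 1 minus vehicle 2, of -4.18. Their summed signal on the log2 scale was 5.98 and 10.22 with the vehicle and 9.54 and 8.69 with AP. The brightest of them, Tnnc2, a troponin of fast muscle, was at 3.91 and 8.03 with the vehicle and at 7.42 and 6.71 with AP. Of the 10 leukocyte markers, 7 were tested and 6 of these were highest in vehicle 2, and their summed signal was 5.82 and 6.97 with the vehicle and 5.73 and 5.73 with AP. The brightest, H2-Ab1, an antigen presentation gene, was at 4.13 and 5.85 with the vehicle and at 4.39 and 4.31 with AP, while Cd79a and Ms4a1, which define B cells, were not well above background in enough mice to be tested. Of the 6 white adipose markers, 3 were tested, with a summed signal of 5.55 and 5.77 with the vehicle and 5.06 and 5.23 with AP. Vehicle 2 was the highest mouse for 2 of these 3, with a median deviation from the mean of the 4 mice of 1.39. These were Lep, the hormone leptin, at 0.04 and 1.45 with the vehicle and at -0.63 and -0.63 with AP, and Nnat, at -0.41 and 3.23 with the vehicle and at 0.19 and -0.10 with AP, both picked out after their values were seen. The brightest was Retn, at 5.50 and 5.40 with the vehicle and at 4.98 and 5.16 with AP, while Hoxc9 and Tcf21, which mark white fat, were well above background in 0 mice. No probe was named for Cd68 of the leukocyte list or Wdnm1 of the white adipose list.

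Of 5 markers that every adipocyte expresses, 4 were lowest in vehicle 2, and their summed signal was 11.43 and 11.0 with the vehicle and 11.31 and 11.33 with AP. The brightest, the fatty acid binding protein gene Fabp4, was at 10.90 and 10.43 with the vehicle and at 10.701 and 10.737 with AP. The exception was Adipoq, the hormone adiponectin, at 8.37 and 8.44 with the vehicle and at 8.06 and 8.16 with AP, highest in vehicle 2. Of the 9 brown adipocyte markers, 4 were lowest in vehicle 2 and 4 in AP 1. Their median deviation from the mean of the 4 mice was -0.16 in vehicle 2 and -0.28 in AP 1. Their summed signal was 12.353 and 11.653 with the vehicle and 11.969 and 12.235 with AP. By summed signal, vehicle 2 had the most of the muscle, leukocyte and white adipose markers. It had the least of the markers of any adipocyte and of the brown adipocyte markers. The part of other cells in the low values of that mouse was not tested. Vehicle 1 had the least muscle signal and AP 1 and AP 2 lay between the vehicle-treated mice. The part of the slide position and brightness of the vehicle 2 array in these values was not tested. The second position number was 1 for both vehicle arrays and 3 and 4 for the AP arrays, so this position and treatment cannot be told apart.

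**Figure D4:**
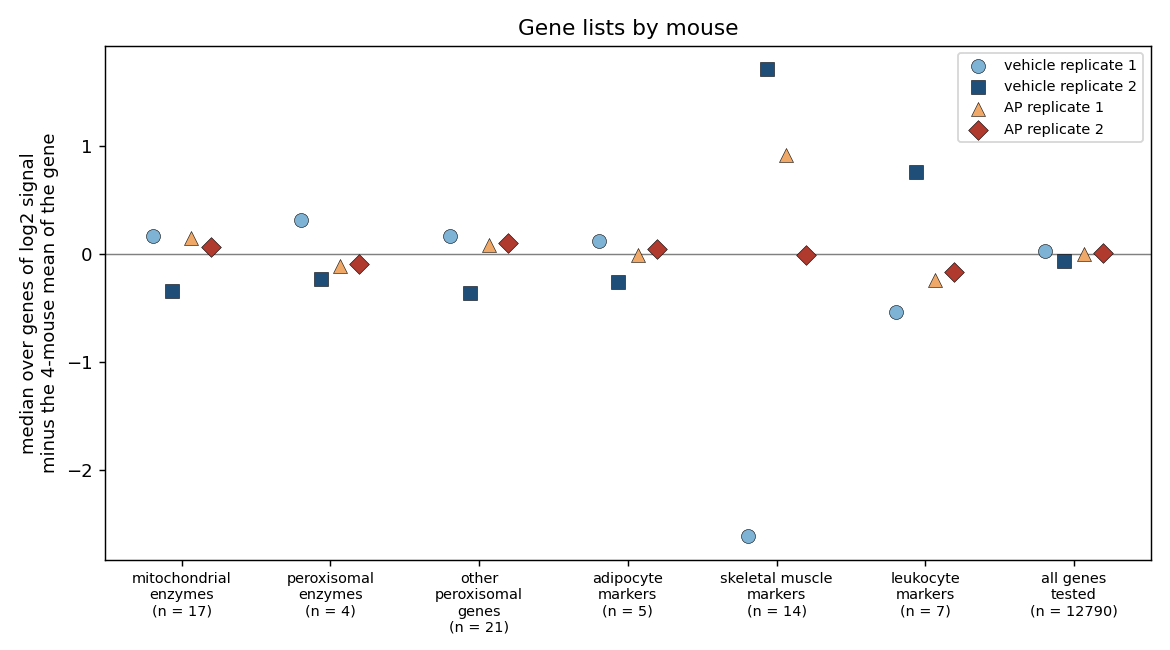
For 7 gene lists, each point is 1 mouse and shows the median over the genes of the log2 signal minus the 4-mouse mean of the gene. Vehicle 2 is lowest for the mitochondrial, peroxisomal and adipocyte lists, at -0.35, -0.23 and -0.27, and highest for the muscle and leukocyte lists, at 1.71 and 0.76.

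The wider pathway was read from 60 other genes, of which 57 were tested. None passed the adjusted threshold in limma, 39 were higher and 18 lower by value, and their median log2 fold change was 0.19. Vehicle 2 was the lowest mouse for 33 of them. Over all genes tested 51.4% were higher, and against vehicle 1 alone 28 of the 57 were higher with a median of -0.0004. The groups did not overlap in 17 of the 57, or 29.8%, with AP above in 13 and below in 4, while 37.4% of all genes had groups that did not overlap.

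Of 11 other mitochondrial fatty acid genes, 10 were tested, 8 were higher by value and the median log2 fold change was 0.23. The most positive were Mlycd, which removes the malonyl-CoA that blocks the shuttle, at 0.41, and Slc25a20, the carnitine carrier of the inner membrane, at 0.35. The most negative were Acad9, a dehydrogenase that also assembles complex I, at -0.24, and Acsl3, a long-chain synthetase, at -0.17. Standard errors of these 4 ran from 0.26 to 0.57, and Slc25a20 was lowest in vehicle 2, at 3.93 against 4.79 to 5.13 in the other mice.

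Of the 21 other peroxisomal genes, 14 were higher with AP by value and the median log2 fold change was 0.15. Against vehicle 1 alone, 7 of the 21 were higher and the median was -0.0476, so the side on which the median fell depended on the vehicle-treated mouse used. Hacl1, which acts in the α-oxidation of branched chains, was at 4.13 and 3.25 with the vehicle and at 4.58 and 4.16 with AP, giving a log2 fold change of 0.68. Vehicle 2 was the lowest mouse for Hacl1 and for 15 of the 21 genes in all. On the lower side, Abcd2, a transporter of very long chains, differed by -0.36 and Crot, the carnitine octanoyltransferase, by -0.33.

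Among 6 other ketone body genes, 3 were higher and 3 lower by value. Slc16a1, a monocarboxylate transporter of lactate and ketone bodies, was at -1.59 and -1.73 with the vehicle and at -2.76 and -2.19 with AP. Both AP-treated mice were lower, by a log2 fold change of -0.82 with a standard error of 0.28, and its limma p was 0.0363 unadjusted and 0.800 adjusted. Aacs, an acetoacetyl-CoA synthetase of the cytosol, was at -0.24 in log2 fold change, and Bdh2 and Acat2 were at 0.17 and 0.03.

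PPAR receptors and their partners, 9 genes, were nearly even, with 5 higher and 4 lower, and vehicle 2 was the lowest mouse for 2 of them. Ppard, a sister receptor of Ppara, was at 1.64 and 1.92 with the vehicle and at 2.12 and 2.38 with AP, giving a log2 fold change of 0.47 with a standard error of 0.23. Rxra, the partner with which the PPARs bind DNA, differed by 0.44. Lpin1, a phosphatidate phosphatase that also acts as a coactivator, was at 5.78 and 5.14 with the vehicle and at 4.71 and 5.04 with AP, giving a log2 fold change of -0.59. Esrra, a receptor that drives mitochondrial genes, differed by -0.28. The groups did not overlap in 6 of the 9 genes, these 4 among them, beside 37.4% of all genes.

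Other targets of PPARα gave the widest differences of the pathway. Of 13 genes, 11 were tested, 9 were higher by value and the median log2 fold change was 0.33. Acot1, a cytosolic thioesterase that frees fatty acids from CoA, was at -0.08 and -2.98 with the vehicle and at 2.69 and 0.23 with AP, giving a log2 fold change of 2.98 with a standard error of 1.28. The groups did not overlap, although AP 2 exceeded vehicle 1 by less than the vehicle-treated mice differed. Fgf21, a secreted hormone that is also a target of ATF4, was at -0.44 and -2.46 with the vehicle and at -1.36 and 2.98 with AP, so that AP 2 alone was high. On the lower side were Ucp3, a mitochondrial carrier of muscle and brown fat, at -0.56, and Cyp4a10, a fatty acid hydroxylase, at -0.14. Vnn1 and Acot2, the 2 genes of this list with an unadjusted limma p below 0.05, were picked out after their values were seen. An unadjusted p below 0.05 was found for 3 of the 57 pathway genes, or 5.26%, and for 6.04% of all genes. Vnn1, which encodes a pantetheinase, was at -2.02 and -2.0 with the vehicle and at -0.44 and -1.07 with AP. Acot2, the mitochondrial neighbor of Acot1, was at 1.17 and -0.12 with the vehicle and at 1.74 and 2.05 with AP. The log2 fold changes were 1.26 and 1.37, the standard errors 0.29 and 0.48, and the adjusted limma p 0.800 for both.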

How the data were processed

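Total RNA of BAT from 4 Tg mice was hybridized to 1-color Agilent arrays. Per the submitters' processing notes, spots were extracted with Agilent Feature Extraction 10.7.1.1. The deposited scanner files hold the intensity of each spot on a linear scale, background-subtracted by the authors' software and not normalized between arrays. A series table of log2 values processed by the authors, deposited beside them, was an alternative, and its normalization is not given in the sources used here. The medians of its columns were -0.28, -0.16, -0.44 and -0.29, the scale and direction follow the scanner values (Pearson's r of array differences at least 0.9986 across 29061 probes), and the value on which each probe is centered stays unknown.

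Control and outlier spots were left out and spots of a probe averaged. Processed signals were taken to log2 and each array's 75th percentile was subtracted. Probes had to be called well above background on both arrays of the vehicle group or both of the AP group, which held for 24972 of 55681, and were tested by lmFit and eBayes in limma 3.58.1 (R 4.3.3), Benjamini-Hochberg adjusted, with a threshold of 0.05. The test was checked on simulated data. Names came from accessions through RefSeq GRCm38.p6, for 26582 probes and 20145 genes, and the brightest tested probe stood for a gene. From each pathway list, the 2 most positive and 2 most negative genes measured well above background in all mice were named, and from each marker list the brightest gene. Of these, 1 is not reported here. The members and lists were chosen with earlier results of these data known. No list was tested, and medians stand beside those of all genes. Replicate numbers were not taken as pairs (correlation of deviations of same-numbered arrays -0.13). All arrays were on 1 slide and read in 1 scan, so neither was used as a block. Alternatives were normexp (offset 50, on the median spot signal), quantile and array median scaling, other filters, a variance trend, the authors' table, a replicate block, each mouse left out, the methods' t-test and the mean of all probes.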

Additional observations from a re-analysis of the deposited data

How the results depend on the processing

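With 2 mice per group, the half-width of the 95% interval had a median of 0.78 on the log2 scale over the 31 genes. No alternative gave an adjusted p below 0.05 for any of the 31 genes or any probe. Of the 11 alternatives that used every mouse, 6 (both filters on dim probes, the variance trend, both blocks and the methods' t-test) leave each fold change as it is. Array medians and the authors' table moved genes nearly alike, by a median of 0.08 and -0.16, and under both all 31 genes stayed on the same side of the median of all genes. Under the other 3 (normexp, quantile and the mean of all probes), 24 of the 31 genes kept their direction, and 9 of these also with each mouse left out: Acsl1, Cpt1a, Acadl, Decr1, Etfb, Etfdh, Acox3, Ehhadh and Bdh1. For 7 of these 9 little more than the sign was kept, with values near 0 of 0.0531 for Acsl1, 0.0367 for Acadl, 0.0479 for Decr1 and 0.0016 for Etfdh without vehicle 2, 0.0013 for Cpt1a and -0.0160 for Etfb without AP 1, and -0.0352 for Acox3 without vehicle 1. Ehhadh was at 0.14 without AP 1 and Bdh1 at 0.18 without vehicle 1. The direction turned with normexp for Cpt1b (-0.11), Cpt2 (-0.0080), Hadh (-0.0388), Etfa (-0.0804) and Oxct1 (-0.0096) and with quantile normalization for Acaa2 (0.0043). Through the shift of all genes alone, the sign turned with array medians for Hadha (0.0240) and Acaa2 (0.0014) and in the authors' table for Acsf2 (-0.0546), Cpt1b (-0.13), Cpt2 (-0.12), Acadm (-0.0519), Hadh (-0.12), Etfa (-0.15), Acat1 (-0.0896) and Oxct1 (-0.10), where the median of all genes was 0.0954 and -0.15 and 24 of the 31 genes were above it in each. The mean of all probes turned Acsf2 (-0.14) and Cpt1b (-0.11). Without the filter on dim probes, 2613 probes had an unadjusted p below 0.05 instead of 1515, over more probes tested. With Eci2 and Crat counted as peroxisomal, the mitochondrial minus peroxisomal difference was 0.0755.

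With each mouse left out in turn (a lone mouse is assumed to vary like the other group), the count of probes with an unadjusted limma p below 0.05 ranged from 1004 without AP 1 to 2177 without vehicle 1, and that of the 31 genes from 0 to 4, with 4 without vehicle 1. With 1 mouse in a group, these counts rest on that assumption, and no share of all genes stands beside them. Whether the 31 genes passed more often than all genes was not tested. The count of higher genes ranged from 10 without vehicle 2 to 27 without vehicle 1. The median of the 31 genes ranged from -0.0420 to 0.38, that of the mitochondrial enzymes from -0.05 to 0.41 and that of the peroxisomal enzymes from -0.41 to 0.15, each without vehicle 2 and without vehicle 1. The difference between the classes ranged from 0.18 without AP 1 to 0.43 without AP 2. Single genes that turned ranged as follows, with 14 of these 20 turning without vehicle 2: Acsl5 -2.08 to 1.34, Acsf2 -0.0420 to 0.26, Cpt1b -0.25 to 0.31, Cpt2 -0.48 to 0.57, Crat -0.16 to 1.09, Acadvl -0.0604 to 0.79, Acadm -0.17 to 0.38, Acads -0.11 to 0.56, Hadha -0.44 to 0.32, Hadhb -0.05 to 0.49, Hadh -0.0194 to 0.10, Echs1 -0.0248 to 0.41, Eci1 -0.0024 to 0.66, Eci2 -0.0417 to 0.79, Etfa -0.0798 to 0.10, Acaa1a -0.35 to 0.0612, Acaa1b -0.60 to 0.24, Pex11a -0.0901 to 0.65, Ppara -0.36 to 0.82 and Acat1 -0.17 to 0.31. Why these values turned was not tested.

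The replicate number as a block left 1227 probes with an unadjusted p below 0.05 and 0 adjusted, and changed no call. The numbers are not stated to pair the mice, and a crossed pairing, added after the data were seen, gave 1567 and 0.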

Other observations

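Some genes next to these pathways were read after their values were seen. Adrb3, the β3-adrenergic receptor through which brown fat is told to burn fatty acids, was at 6.80 and 6.70 with the vehicle and at 5.33 and 5.77 with AP. Its log2 fold change was -1.20 with a standard error of 0.25 and an adjusted limma p of 0.800, and vehicle 2 was not the outlying mouse. Pdk4, the kinase that turns pyruvate away from oxidation when fatty acids are burned, was at 5.98 and 6.65 with the vehicle and at 7.99 and 6.51 with AP, so that AP 1 alone was high, as it was for Ehhadh. Elovl3, a fatty acid elongase of brown fat, was at 6.08 and -1.07 with the vehicle and at 3.52 and 5.76 with AP, and vehicle 2 was again the lowest mouse. Dio2, which activates thyroid hormone in brown fat, was at 0.49 and 1.53 with the vehicle and at -1.78 and 3.33 with AP, with the AP-treated mice at both extremes.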
